A study of Mus musculus with 82 samples.

Results

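The AP-1 genes are the 7 mouse genes of the Fos and Jun families, Fos, Fosb, Fosl1, Fosl2, Jun, Junb and Jund. They were taken by gene symbol from the count tables of 43629 gene identifiers, and all 7 had reads in both tissues. The study compared mice in which the superior colliculus, a midbrain target of retinal ganglion cells (RGCs), was stimulated for weeks through an excitatory designer receptor (DREADD), with or without ocular hypertension. There were 4 groups, each with RGC samples sorted from 1 retina and lysates of 1 colliculus: “OHT+DREADD” (10 samples per tissue), “SHAM+DREADD” (10), “OHT” (11) and “SHAM” (10).

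All mice were adults of either sex, given as about 10 weeks old in the description of the series although the schedule in the methods adds up to an older age, and came from a cross of Vglut2-ires-Cre with Thy1-STOP-YFP animals, in which YFP serves to sort RGCs. “OHT+DREADD” and “OHT” mice received magnetic microbeads in the right eye and were killed 5 weeks later. “SHAM+DREADD” and “SHAM” mice received vehicle in that eye. In “OHT+DREADD” and “SHAM+DREADD” mice the left colliculus carried the hM3D(Gq) receptor, delivered by an AAV under the CaMKIIα promoter, whereas “OHT” and “SHAM” mice carried a null vector there. All mice, controls included, were given the receptor's ligand clozapine-N-oxide, the last dose shortly before death, so the DREADD comparisons set receptor against null vector under the same drug. The retina was dissociated with warm papain before sorting, whereas the colliculus was frozen. The labels give the genotype as WT.

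Depth ranged from 3534776 to 6889040 reads in genes per RGC library (Smart-Seq2, which samples the whole transcript) and from 1766207 to 4239835 per collicular library (QuantSeq, which counts transcript 3′ ends). The sorted samples held more rod than RGC marker transcript: the summed level of 10 rod markers was 11255 to 97193 CPM (reads scaled to library size), against 452 to 1872 CPM for 12 RGC markers, all of which had reads. In the colliculus the rod markers summed to at most 11.6 CPM, with Cnga1 and Gngt1 at 0. One collicular library, “SHAM” replicate 1, has a treatment field that names another group. It was kept under its title, and the members called are also given without it. No pair of libraries was near-identical. Xist exceeded 4 Y-linked genes in 5 of 10 “OHT+DREADD”, 10 of 10 “SHAM+DREADD”, 2 of 11 “OHT” and 2 of 10 “SHAM” samples, with the same answer for retina and colliculus in 41 of 41 group and number matches. Sex was thus unevenly spread over the groups, and values that allow for it are given beside the results.

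AP-1 is a dimeric transcription factor in which a Jun protein pairs with a Fos protein or with another Jun protein through a leucine zipper, the basic region contacting DNA. Fos, Fosb and Junb are classic immediate early genes: calcium entry and MAP kinase signalling switch them on within minutes in active neurons, which is why Fos is used as a marker of recent activity. Jun is best known in neurons for its induction after axonal injury, including in RGCs after optic nerve damage. Jund is broadly expressed with little induction.

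The promoters of 4 members are shown because these genes did and did not move together below. They are the 250 bases before the RefSeq start on the gene's strand (build GRCm38.p6). Capitals mark the TGACG core of the cAMP response element or its extension TGACGTAG, the EGR motif GCGGGGGCG, the variant AP-1 motif TGACATCA and, on the given strand only, the TATA core TATAA. The 2 members with the largest changes in the colliculus, Fos (chr12:85473640-85473889, plus strand) and Fosb (chr7:19310046-19310295, minus strand), come first. Junb (chr8:84978749-84978998, minus strand) and Jun (chr4:95052223-95052472, minus strand) follow.
Fos: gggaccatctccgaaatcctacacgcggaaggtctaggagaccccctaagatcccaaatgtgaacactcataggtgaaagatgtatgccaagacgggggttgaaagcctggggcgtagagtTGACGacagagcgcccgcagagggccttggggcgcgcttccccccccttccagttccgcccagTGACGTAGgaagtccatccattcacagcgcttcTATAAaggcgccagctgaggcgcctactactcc
Fosb: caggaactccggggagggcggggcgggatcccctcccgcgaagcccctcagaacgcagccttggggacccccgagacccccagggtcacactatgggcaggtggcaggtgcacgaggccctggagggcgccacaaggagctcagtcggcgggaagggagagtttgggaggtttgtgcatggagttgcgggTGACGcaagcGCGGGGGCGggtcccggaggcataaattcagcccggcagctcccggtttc
Junb: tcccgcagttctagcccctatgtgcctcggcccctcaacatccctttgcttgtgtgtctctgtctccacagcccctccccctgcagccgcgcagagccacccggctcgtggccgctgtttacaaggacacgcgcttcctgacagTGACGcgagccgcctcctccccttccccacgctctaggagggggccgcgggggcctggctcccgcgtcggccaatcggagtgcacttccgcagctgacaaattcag
Jun: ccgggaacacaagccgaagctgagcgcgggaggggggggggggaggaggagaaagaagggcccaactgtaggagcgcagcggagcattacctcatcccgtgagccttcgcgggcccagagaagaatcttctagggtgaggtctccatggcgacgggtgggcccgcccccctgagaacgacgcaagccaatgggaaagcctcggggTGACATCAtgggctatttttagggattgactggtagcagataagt

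The TGACG core, searched on both strands like the motifs below except TATAA, lay in the Fos window at positions -129 to -125 and -66 to -62 from the start, in that of Fosb at -60 to -56 and in that of Junb at -106 to -102. It was found in 17.8% of 32851 RefSeq promoter windows of the same length. TGACGTAG (0.329% of windows) overlapped the nearer Fos core, at -66 to -59, and TATAA (16% on the given strand) lay at -33 to -29. GCGGGGGCG (2.57%) lay at -50 to -42 in Fosb and at -79 to -71 in Fosl2, whose window lies inside the gene as GENCODE annotates it and is not printed. The Jun window held none of these but had TGACATCA (2.93%) at -45 to -38. The full element TGACGTCA (1.55%), the AP-1 motif TGANTCA (6.75%) and the CArG box (1.47%) matched none of the 6 windows, and no motif matched that of Jund. The Jund window ends at chr8:70697738, upstream of the GENCODE start of that gene at 70698949. The bases just before the GENCODE start were thus not searched. Fosl1 had no entry among the promoters used here. A match or its absence describes letters in a window only.

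In the superior colliculus all 7 genes were read in at least 39 of 41 libraries. Because 3′ reads are counted per transcript end, collicular CPM was compared between genes without division by length. Averaged over 41 libraries, Jund stood highest at 54.6 CPM, followed by Jun (43.4), Fos (35.3), Junb (32.6), Fosl2 (26.6), Fosb (4.41) and Fosl1 (1.76). Jund lay above 79.6% and Fos above 70.2% of 16169 genes.

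Fos and Fosb were higher in colliculi that carried the receptor, in both eye conditions. In “SHAM+DREADD” vs. “SHAM” the Fosb call was lost with sex as a covariate (edgeR quasi-likelihood test, adjusted p = 0.386). Of the 7 members, 3 were called higher in “OHT+DREADD” vs. “OHT” (Fos, Fosb and Fosl2) and 3 in “SHAM+DREADD” vs. “SHAM” (Fos, Fosb and Junb), where a call required an adjusted p of at most 0.1 and an absolute log2 fold change of at least 0.5. Among all genes tested, 0.0828% were called higher in the first comparison (13 of 15694) and 0.0518% in the second (8 of 15433). In either direction 0.0956% of genes were called in the first and 0.0842% in the second, and no member was lower. The tests below are edgeR quasi-likelihood tests with p-values adjusted over all genes.

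Fos, the canonical activity-induced partner of Jun, ranged from 26.8 to 99.8 CPM in “OHT+DREADD” colliculi (median 58.8), against 6.02 to 38.0 CPM in “OHT” colliculi (median 15.5). In “SHAM+DREADD” colliculi it ranged from 29.9 to 69.4 CPM (median 52.7), against 9.67 to 31.6 CPM in “SHAM” colliculi (median 14.9). The ranges met only through the 2 lowest “OHT+DREADD” libraries, “OHT” replicate 11, the lowest “SHAM+DREADD” library and “SHAM” replicate 10. Of the 20 stimulated colliculi, 16 lay above the highest of the 21 unstimulated ones. Fos rose 3.76-fold in “OHT+DREADD” vs. “OHT” (log2 fold change 1.91, SE 0.24, adjusted p = 3.89e-05). It rose 3.08-fold in “SHAM+DREADD” vs. “SHAM” (log2 fold change 1.62, SE 0.17, adjusted p = 1.59e-07).

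Fosb, whose short splice form ΔFosB builds up in chronically active neurons, was the gene of lowest p in “OHT+DREADD” vs. “OHT”. The 3′ reads do not separate its splice forms here. It ranged from 2.85 to 10.1 CPM in “OHT+DREADD” colliculi (median 9.54), against 0.450 to 2.67 CPM in “OHT” colliculi (median 1.27). “SHAM+DREADD” colliculi held 4.61 to 12.8 CPM (median 6.22) and “SHAM” colliculi 0.359 to 3.95 CPM (median 1.14). In neither comparison did the groups overlap, which held in this direction for 0.00637% of genes in the first and 0.013% in the second. Read numbers were small, 8 to 36 reads per “OHT+DREADD” and 12 to 50 per “SHAM+DREADD” library, against 1 to 8 per “OHT” and 1 to 11 per “SHAM” library. Fosb rose 5.15-fold in “OHT+DREADD” vs. “OHT” (log2 fold change 2.37, SE 0.28, adjusted p = 1.78e-05). It rose 4.67-fold in “SHAM+DREADD” vs. “SHAM” (log2 fold change 2.22, SE 0.29, adjusted p = 1.87e-05). Fosb stood at 14.7% ± 7.89 of the Fos level in “OHT+DREADD” and 14.1% ± 4.11 in “SHAM+DREADD” colliculi, against 11.0% ± 7.13 in “OHT” and 9.12% ± 4.11 in “SHAM” colliculi (SD, n = 10, 10, 11 and 10), with ranges that overlapped in all 4 groups.

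**Figure D1:**
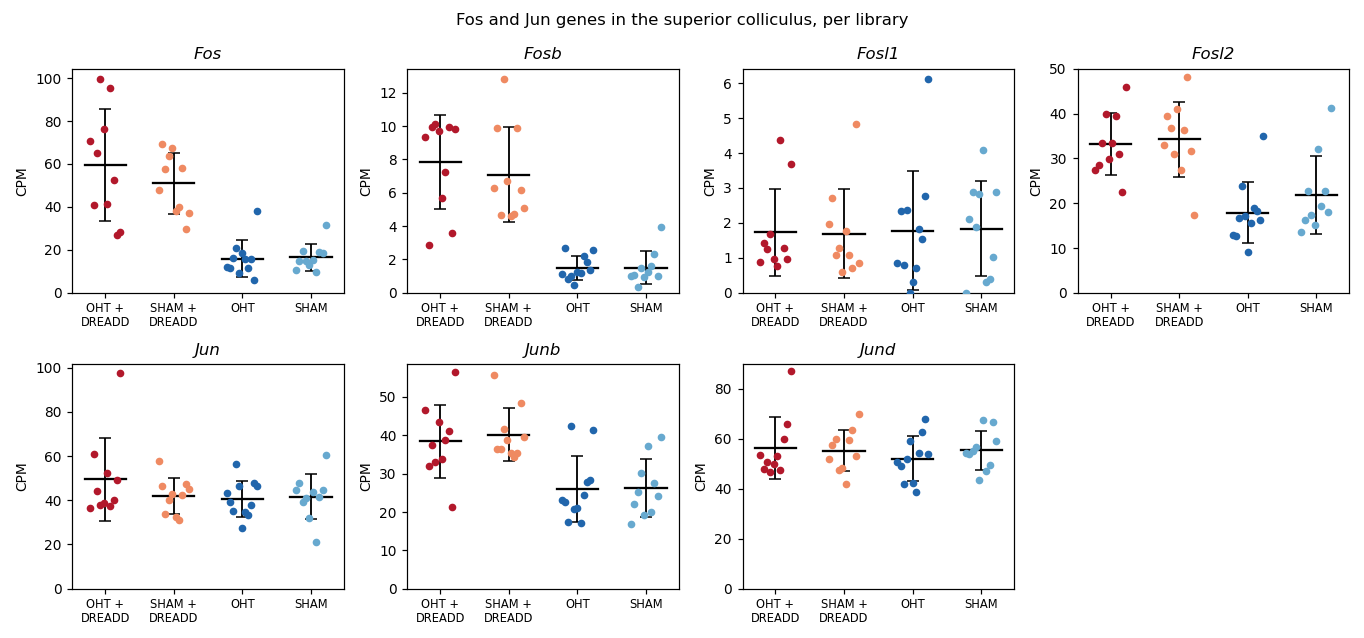
Each panel plots 1 gene in the superior colliculus, with CPM on the vertical axis and the 4 groups on the horizontal axis. Points are libraries and black lines are the mean ± SD. Fos and Fosb are high in both DREADD groups and Fosl2 and Junb moderately so, whereas Fosl1, Jun and Jund sit at like levels in the 4 groups apart from 1 “OHT+DREADD” library with 97.6 CPM of Jun.

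Fosl2 (also Fra-2) and Junb moved in the same direction but less. Fosl2 ranged from 22.5 to 46.1 CPM in “OHT+DREADD” colliculi (median 32.3), against 9.22 to 35.1 CPM in “OHT” colliculi (median 16.7). It rose 1.86-fold (log2 fold change 0.90, SE 0.16, adjusted p = 0.0118). In “SHAM+DREADD” colliculi it ranged from 17.5 to 48.1 CPM (median 34.7), against 13.5 to 41.3 CPM in “SHAM” colliculi (median 18.6). That difference, 1.57-fold, was not called (log2 fold change 0.65, SE 0.16, p = 2.94e-04, adjusted p = 0.188). DESeq2 (adjusted p = 0.0716), limma-voom (0.045) and the likelihood ratio test (0.0484) each called it. Leaving out “SHAM+DREADD” replicate 10 (adjusted p = 0.0428) or “SHAM” replicate 6 (adjusted p = 0.065) led to a call. Without “SHAM” replicate 10, the highest “SHAM” library for Fos, Fosb, Fosl2, Junb and Jun, the adjusted p was 0.0075, with a log2 fold change of 0.80.

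Junb, which binds Fos proteins and activates more weakly than Jun, ranged from 34.2 to 55.9 CPM in “SHAM+DREADD” colliculi (median 37.6), against 16.8 to 39.5 CPM in “SHAM” colliculi (median 24.7). It rose 1.53-fold (log2 fold change 0.62, SE 0.13, adjusted p = 0.0298). In “OHT+DREADD” colliculi Junb ranged from 21.2 to 56.5 CPM (median 38.1), against 17.2 to 42.4 CPM in “OHT” colliculi (median 23.2). This 1.48-fold difference was not called (log2 fold change 0.57, SE 0.16, p = 0.00115, adjusted p = 0.413). Limma-voom with sample weights gave an adjusted p of 0.0191 for it.

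Jun and Jund gave no call, and the intervals bound what could have been missed. For Jun the 95% interval of the log2 difference was -0.03 to 0.57 in “OHT+DREADD” vs. “OHT” and -0.24 to 0.26 in “SHAM+DREADD” vs. “SHAM”. For Jund it was -0.12 to 0.35 in “OHT+DREADD” vs. “OHT” and -0.19 to 0.17 in “SHAM+DREADD” vs. “SHAM”. Jun averaged 49.5 ± 18.7 CPM in “OHT+DREADD”, 42.0 ± 8.1 in “SHAM+DREADD”, 40.7 ± 8.2 in “OHT” and 41.6 ± 10.2 in “SHAM” colliculi (SD). “OHT+DREADD” replicate 10 stood apart with 97.6 CPM of Jun and 87.2 CPM of Jund, and its summed microglia markers (1126 CPM) were the highest of all 41 colliculi, the others lying between 391 and 904 CPM. Fosl1 (Fra-1), an AP-1 gene of growing and migrating cells, stood at 0 to 6.11 CPM in all groups and gave no call. Its 95% intervals were -0.97 to 0.87 in “OHT+DREADD” vs. “OHT” and -1.02 to 0.79 in “SHAM+DREADD” vs. “SHAM”. A rise of the size seen for Fos or Fosb lay outside these intervals, whereas a smaller change could have been missed at this depth.

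The composition of the family changed accordingly. The 4 Fos genes made up 41.3% ± 10.0 of the summed AP-1 level in “OHT+DREADD” colliculi and 40.3% ± 6.52 in “SHAM+DREADD” colliculi, against 23.4% ± 5.67 in “OHT” and 24.9% ± 4.32 in “SHAM” colliculi (SD, n = 10, 10, 11 and 10). Fos alone made up 24.1% ± 9.22 in “OHT+DREADD” and 21.8% ± 4.65 in “SHAM+DREADD”, against 10.2% ± 3.96 in “OHT” and 9.90% ± 1.97 in “SHAM” colliculi. Jund made up 23.0% ± 5.04 in “OHT+DREADD” and 24.1% ± 4.11 in “SHAM+DREADD”, against 33.9% ± 5.01 in “OHT” and 34.1% ± 4.33 in “SHAM” colliculi. These shares restate the levels above and were not tested.

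Ocular hypertension itself gave no collicular difference in this family. No member was called in “OHT” vs. “SHAM” (background 0.0193%) or in “OHT+DREADD” vs. “SHAM+DREADD” (background 0.0192%), and none had an unadjusted p under 0.05, against 4.95% and 7.13% of all genes. For Fos the log2 difference was -0.04 (95% interval -0.50 to 0.41) in “OHT” vs. “SHAM” and 0.24 (-0.16 to 0.65) in “OHT+DREADD” vs. “SHAM+DREADD”. The test of whether the DREADD effect differed with ocular hypertension called 0 of 7 members (background 0.0433%), with none at an unadjusted p under 0.05 against 7.94% of all genes. Its estimates were 0.28 for Fos (-0.36 to 0.91) and 0.13 for Fosb (-0.73 to 0.99) on the log2 scale. DESeq2, limma-voom and the likelihood ratio test also called none. Without allowance for sex the 2 stimulated groups were thus neighbours for Fos and Fosb that did not differ beyond their spread. The same held for the 2 unstimulated groups. Among Xist-high colliculi mean log2 levels in “OHT+DREADD” exceeded those in “SHAM+DREADD” by 0.49 for Fos and 0.30 for Fosb (5 vs. 10). These within-sex differences were not tested. With sex as a covariate no member was called in that comparison or in the contrast of DREADD effects.

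**Figure D2:**
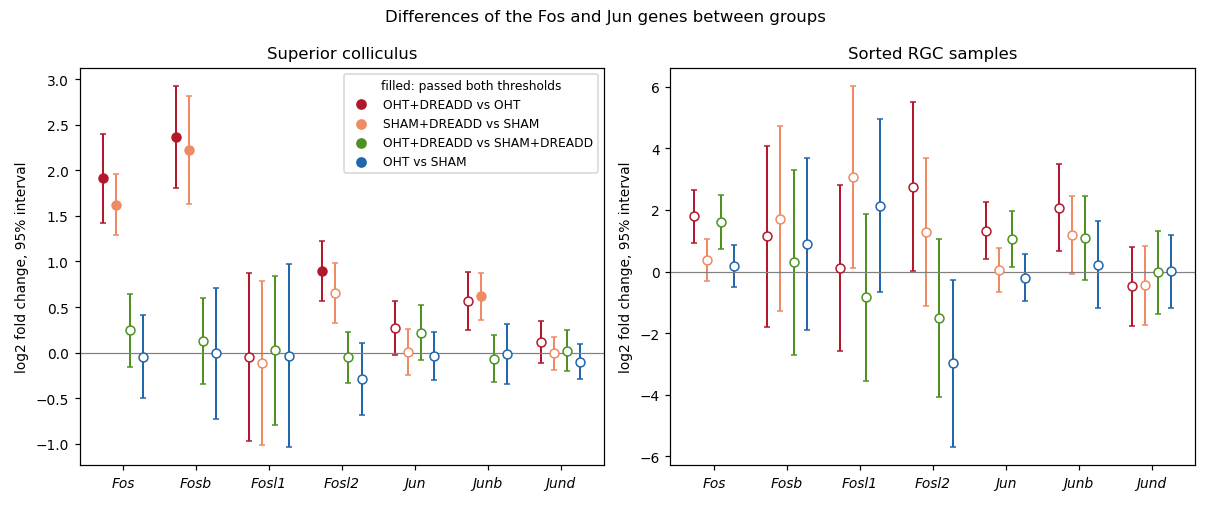
The vertical axis gives the log2 fold change and its 95% interval, first-named group over second, for the 7 genes in the colliculus (left) and in the sorted RGC samples (right), and filled points passed both thresholds. In the colliculus only DREADD comparisons hold filled points (Fos, Fosb, Fosl2 and Junb), whereas no point is filled in the RGC samples, where intervals are wider.

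Several features of the libraries moved with the collicular groups. With sex as a covariate, “SHAM+DREADD” vs. “SHAM” rested on the 2 “SHAM” colliculi in which Xist was higher, and 1 member was called in place of 3. Fos kept a log2 fold change of 1.84 (adjusted p = 0.0142), whereas Fosb stood at 1.86 (adjusted p = 0.386) and Junb at 0.75 (adjusted p = 0.404). In “OHT+DREADD” vs. “OHT” the same 3 members were called with the covariate. Among the Xist-high samples the difference in mean log2 Fos was 2.25 (5 “OHT+DREADD” vs. 2 “OHT”), and among the others it was 1.53 (5 vs. 9). Without the “SHAM” colliculus of conflicting labels no member was called in “OHT” vs. “SHAM” or in the contrast of DREADD effects, by edgeR's quasi-likelihood test. In “SHAM+DREADD” vs. “SHAM” Fosl2 then stood at 0.59 (adjusted p = 0.332), Jun at 0.02 and Jund at -0.01, whereas Fos, Fosb and Junb stood at 1.56, 2.17 and 0.55 and were called (adjusted p = 9.26e-07, 9.33e-05 and 0.0723). Microglia markers summed to 553 to 904 CPM in “SHAM+DREADD”, against 429 to 736 CPM in “SHAM” colliculi, and 9 of 10 were higher, with 7 of them at an unadjusted p under 0.05, which 9.54% of all genes had in either direction. Of 9 neuron markers 7 were lower there (4 at that p), as were 6 of 7 amacrine and bipolar markers (5 at that p). In “OHT+DREADD” vs. “OHT” 6 of 10 microglia markers and 6 of 9 neuron markers were higher. The part of these markers in the AP-1 differences was not tested. In whole tissue, a change in RNA per cell and a change in cell numbers cannot be told apart.

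Genes around AP-1 were counted in lists. Of 24 other immediate early genes, 23 were tested in the colliculus. All 23 were higher in “OHT+DREADD” vs. “OHT” (54.2% of all genes), with 4 called (0.0828% of all genes called higher). Their median log2 difference was 0.53, against 0.02 over all genes. The 2 of lowest p were Nr4a1, a nuclear receptor (log2 fold change 1.3, adjusted p = 0.00871), and Dusp1, a MAP kinase phosphatase (0.66, adjusted p = 0.0189). In “SHAM+DREADD” vs. “SHAM” 22 of 23 were higher (51.2% of all genes), with a median of 0.36, against 0.00 over all genes. There 2 were called (0.0518% of all genes called higher). These were Nr4a3 (log2 fold change 2.01, adjusted p = 5.86e-05) and Egr1, a zinc finger factor of activity (0.76, adjusted p = 0.0148). None of the other lists gave a call in either comparison. They held 14 other bZIP genes that pair with Fos or Jun, 23 regulators of Fos and Jun, 15 AP-1 target genes and 13 heat shock and dissociation genes. The lowest p among the bZIP partners belonged to Maff, a small Maf gene, with log2 differences of 0.66 in “OHT+DREADD” vs. “OHT” (adjusted p = 0.598) and 0.67 in “SHAM+DREADD” vs. “SHAM” (adjusted p = 0.329). Among the regulators Crem, a cAMP-responsive factor, stood at 0.41 in “SHAM+DREADD” vs. “SHAM” (adjusted p = 0.289). Of 12 AP-1 target genes tested, 11 were higher in each comparison (54.2% and 51.2% of all genes), with medians of 0.20 and 0.18. At an unadjusted p under 0.05 stood 0 of them in “OHT+DREADD” vs. “OHT”. In “SHAM+DREADD” vs. “SHAM” 2 did, 1 of them higher. In the same 2 comparisons 10 and 11 of 13 bZIP partners were higher. So were 7 and 12 of 13 heat shock and dissociation genes, and 11 and 13 of 23 regulators. Among the heat shock and dissociation genes Nfkbia, an inhibitor of NF-κB, stood at 0.72 in “OHT+DREADD” vs. “OHT” (adjusted p = 0.471).

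Across the 41 colliculi the genes whose log2 levels were most like those of Fos were Egr1 (r = 0.82), Nr4a3 (0.78), Fosl2 (0.78), Nr4a1 (0.74) and Junb (0.70), out of 11616 genes. Those most like Jun were Klf6 (r = 0.81), Nrros (0.79), Gpr65 (0.78), Hcls1 (0.77) and Lamp1 (0.77), of which Nrros, Gpr65 and Hcls1 are known from myeloid cells. These correlations include the group differences and share library depth. They also include “OHT+DREADD” replicate 10, the highest colliculus for both Jun (97.6 CPM) and summed microglia markers (1126 CPM), and were not computed without it.

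Within groups some pairs of members were correlated. Deviations of log2(CPM + 0.5) from group means were correlated over 41 libraries for all 21 pairs in each tissue, with permutation p-values (100000 draws within groups) adjusted over 42 pairs. In the colliculus 6 of 21 pairs had an adjusted p under 0.05 for both r and rho. Fos went with Fosl2 (r = 0.50, permutation adjusted p = 0.0091, and rho = 0.46, adjusted p = 0.0193) and with Fosb (r = 0.44, permutation adjusted p = 0.0227, and rho = 0.44, adjusted p = 0.024). Fosl2 went with Junb (r = 0.60, permutation adjusted p = 0.00231, and rho = 0.46, adjusted p = 0.0211), and Jun with Jund (r = 0.55, permutation adjusted p = 0.0068, and rho = 0.46, adjusted p = 0.0193). Junb also went with Fosl1 (r = 0.59, permutation adjusted p = 0.00294, and rho = 0.55, adjusted p = 0.0112) and Fosb (r = 0.46, permutation adjusted p = 0.0169, and rho = 0.48, adjusted p = 0.0188). For Fos and Jun r was -0.12 (permutation adjusted p = 0.603) and rho -0.17 (adjusted p = 0.445). Without the 2 libraries farthest from the median of the first gene, r was 0.43 for Fos with Fosl2, 0.43 for Fos with Fosb, 0.47 for Fosl2 with Junb, 0.39 for Jun with Jund, 0.49 for Fosl1 with Junb and 0.39 for Fosb with Junb.

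In the sorted RGC samples AP-1 levels were compared between genes per kilobase of exon, since Smart-Seq2 reads cover the whole transcript. Fos averaged 15.4 CPM per kb over 41 libraries, above 87.7% of 19234 genes. Jun (5.08), Junb (3.58) and Jund (2.53) followed. These means run over all groups and include “OHT+DREADD” replicates 9 and 10. Junb stood at 33.7 and 18.9 CPM per kb in those retinas and Jund at 1.91 and 0.801. The order of the means was not computed without them. Fosl1 (0.340), Fosl2 (0.0786) and Fosb (0.057) were sparse, with reads in 16, 18 and 7 of 41 libraries. The retina was dissociated at body temperature before sorting in all groups, and the contribution of this step to the levels was not tested. Counting on the strand was not stated. Fosl1 shares 1163 of 2033 exon bases with Ccdc85b on the other strand, which had 4706 reads in these libraries against 141 for Fosl1, and Jund shares 877 of 1668 with the antisense gene Gm11175 (3248 reads against 904). Junb shares 173 of 2301 bases with Prdx2, and Jun 232 of 3189 with Junos. Without strand, reads of the shared stretches cannot be told apart, so retinal Fosl1 and Jund are uncertain.

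No member was called in any RGC comparison by edgeR's quasi-likelihood test at the threshold of 1.3 on the log2 scale. Limma-voom called none either, and the likelihood ratio test called Fos in “OHT+DREADD” vs. “OHT”. DESeq2 made no call, but in “OHT+DREADD” vs. “OHT” it gave an adjusted p to Fos alone of the members, so Jun (unadjusted p = 0.00568) and Junb (unadjusted p = 0.0113) could not be called by it. It also gave none to Fosb in “OHT” vs. “SHAM” or to Fosb, Fosl1 and Fosl2 in the contrast of DREADD effects. The nearest was Fos in “OHT+DREADD” vs. “OHT”, which ranged from 15.3 to 288 CPM in “OHT+DREADD” retinas (median 36.5), against 8.23 to 49.3 CPM in “OHT” retinas (median 16.4). Replicates 9 and 10 held 288 and 226 CPM and the other 8 “OHT+DREADD” retinas 15.3 to 73.4 CPM, so most of the group overlapped “OHT”. The 3.47-fold difference missed the adjusted threshold (log2 fold change 1.80, SE 0.42, p = 1.43e-04, adjusted p = 0.136), where 0.0874% of 17160 genes were called. Sex as a covariate (2.10, adjusted p = 6.84e-04), the likelihood ratio test (adjusted p = 0.0209) and 1 fit of all groups (adjusted p = 0.0547) each passed it. With 1 library left out it was 1.29 to 1.96 and was called without “OHT+DREADD” replicate 4, 5, 6, 7 or 8 (adjusted p = 0.0503 to 0.0829 by edgeR's quasi-likelihood test). Without both replicates 9 and 10 it was 0.56 (p = 0.0755).

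Jun and Junb were high in the same 2 retinas. Jun stood at 76.1 and 93.0 CPM there, against 2.96 to 25.5 CPM in the other 8, and “OHT” retinas held 1.40 to 21.04 CPM. Junb stood at 77.6 and 43.6 CPM, with 18.8 and 24.5 CPM in replicates 1 and 2, 0.204 to 2.96 CPM in the remaining 6 and 0 to 10.8 CPM in “OHT” retinas. In “OHT+DREADD” vs. “OHT” the log2 fold change was 1.32 for Jun (SE 0.46, p = 0.00649, adjusted p = 0.228) and 2.07 for Junb (SE 0.69, p = 0.00477, adjusted p = 0.208). Without both retinas these were 0.29 and 0.73. In all, 4 of 7 members were higher at an unadjusted p under 0.05, against 5.02% of all genes. The fourth was Fosl2, with 29 reads in 4 “OHT+DREADD” retinas against 4 reads in 2 “OHT” retinas. Jund, at 0.665 to 8.79 CPM in “OHT+DREADD” and 0 to 11.4 CPM in “OHT” retinas, was not high in replicates 9 and 10.

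**Figure D3:**
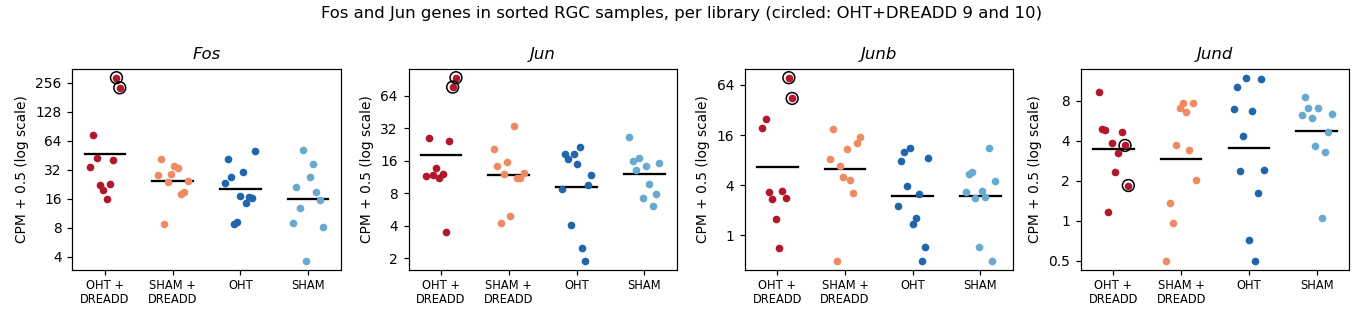
Each panel plots 1 gene in the sorted RGC samples, with CPM + 0.5 on a log2 vertical axis and the 4 groups on the horizontal axis. Points are libraries, black lines are means on the log scale and circles mark “OHT+DREADD” replicates 9 and 10. Both circled retinas lead their group in Fos, Jun and Junb (288 and 226 CPM of Fos) but not in Jund.

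Other readouts of these 2 retinas were compared with the rest. Egr1 stood at 333 and 418 CPM in them, 170 CPM in replicate 2 and 4.07 to 47.7 CPM in the other 7 “OHT+DREADD” retinas. Of 21 other immediate early genes tested, 2 were called in “OHT+DREADD” vs. “OHT”, where 0.0758% of all genes were called higher. The first was Egr1 (log2 fold change 4.02, adjusted p = 0.00378 by edgeR's quasi-likelihood test). The other was Nr4a1 (2.73, adjusted p = 0.0835). Rod markers summed to 97193 CPM in replicate 9, the highest of all RGC libraries, and to 24686 CPM in replicate 10, inside the range of the other groups. In “OHT+DREADD” vs. “OHT” 9 of 10 rod markers were higher (1 at an unadjusted p under 0.05), 8 of 9 Müller glia markers were higher (3 at that p) and 11 of 12 RGC markers were lower (3 at that p), against 8.47% of all genes in either direction. None was called, and their part in the AP-1 differences was not tested. With rod markers as a covariate the Fos difference was 1.65 (adjusted p = 0.203). Oligodendrocyte markers summed to 80.8 and 80.7 CPM in replicates 9 and 10, the highest 2 of all RGC libraries. The 14 bZIP partners summed to 386 CPM in replicate 9, the highest of all, and to 230 CPM in replicate 10. Heat shock and dissociation genes summed to 2876 and 3498 CPM in the 2 retinas, against 2570 to 4221 CPM in all “OHT+DREADD” and 2658 to 5060 CPM in “OHT” retinas. Of that list, 9 of 13 genes were higher in “OHT+DREADD” vs. “OHT” and none was called.

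Sex also moved with these levels. The 5 “OHT+DREADD” retinas in which Y-linked genes were higher, replicates 9 and 10 among them, held 33.5 to 288 CPM of Fos and the 5 in which Xist was higher 15.3 to 39.5 CPM. The difference from “OHT” in mean log2 Fos was 1.95 in the first set (5 vs. 9 retinas) and 1.35 in the second (5 vs. 2). For Junb it was 3.16 in the first and -1.76 in the second. In “OHT+DREADD” vs. “SHAM+DREADD” Fos was 3.04-fold higher (log2 fold change 1.60, SE 0.43, p = 6.82e-04, adjusted p = 0.266; background 0.041%). Jun was 2.06-fold higher (p = 0.0261, adjusted p = 0.562 by edgeR's quasi-likelihood test), so 2 of 7 members had an unadjusted p under 0.05, against 4.05% of all genes. Without replicates 9 and 10 the log2 differences were 0.38 for Fos and 0.03 for Jun. As all “SHAM+DREADD” samples were Xist-high, only those can be compared within sex, where the difference was -0.08 (5 vs. 10). “SHAM+DREADD” vs. “SHAM” (background 0.0115%) and “OHT” vs. “SHAM” (background 0.0686%) gave log2 differences for Fos of 0.37 (95% interval -0.32 to 1.05) and 0.19 (-0.50 to 0.87). For Jun they were 0.06 (-0.65 to 0.77) and -0.20 (-0.95 to 0.56). The test of whether the DREADD effect differed with ocular hypertension gave 1.41 for Fos (p = 0.017, adjusted p = 0.283) and 1.24 for Jun (p = 0.0441, adjusted p = 0.469), with 2.4% of genes called and none of the members. Both were among 2 of 7 members higher at an unadjusted p under 0.05, against 5.46% of all genes. Without replicates 9 and 10 the estimates were 0.20 and 0.22, and with sex as a covariate 0.78 and 0.45.

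The sparse members carried little information in the retina. Fosb had reads in 3 “OHT+DREADD”, 2 “SHAM+DREADD”, 1 “OHT” and 1 “SHAM” retinas, with at most 16 reads in any. Fosl2 had 29 reads in “OHT+DREADD”, 86 in “SHAM+DREADD”, 4 in “OHT” and 32 in “SHAM” retinas, and its log2 difference in “OHT” vs. “SHAM”, -2.98 (SE 1.35, adjusted p = 0.715), rested on 4 against 32 reads. It was 1 of 7 members at an unadjusted p under 0.05 there, against 5.77% of all genes. Fosl1 had 33 reads in “OHT+DREADD”, 62 in “SHAM+DREADD”, 39 in “OHT” and 7 in “SHAM” retinas, and 37 of the 62 came from 1 retina. In “SHAM+DREADD” vs. “SHAM” it was 1 of 7 members at an unadjusted p under 0.05 (log2 difference 3.07, p = 0.0429, adjusted p = 0.909), against 5.17% of all genes. A Fosb response of the collicular size was not detectable at this depth, as the retinal interval ran from -1.80 to 4.08 in “OHT+DREADD” vs. “OHT”.

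In the RGC samples 5 of 21 pairs had an adjusted p under 0.05 for both r and rho, of which Fos with Fosb and Fosl2 with Jund rest on sparse reads and the fifth was Jun with Junb (r = 0.52, permutation adjusted p = 0.0127, and rho = 0.45, adjusted p = 0.0264). Fos went with Jun (r = 0.57, permutation adjusted p = 0.00294, and rho = 0.54, adjusted p = 0.0103) and Junb (r = 0.61, adjusted p = 0.00231, and rho = 0.50, adjusted p = 0.0188) within groups, by the same permutation test over 41 libraries. Without the 2 libraries farthest from the median of Fos r was 0.41 and 0.48. The genes most like Fos across retinas were Prnp (r = 0.74), Usp2 (0.73), Strap (0.72), Egr1 (0.72) and Bcar1 (0.71), out of 9310 genes. Those most like Jun were Vps37c (0.67), Ppan (0.67), Usp2 (0.64), Prpsap1 (0.64) and Slc3a2 (0.63). Both rankings include the group differences and share library depth. They also include “OHT+DREADD” replicates 9 and 10, and were not computed without them. The Fos genes made up 62.6% ± 7.27 of the summed per-kilobase level in “OHT+DREADD” and 55.6% ± 8.77 in “SHAM+DREADD” retinas, against 56.5% ± 18.4 in “OHT” and 46.3% ± 19.2 in “SHAM” retinas (SD, n = 10, 10, 11 and 10), with overlapping ranges.

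Retina and colliculus of the same group and number were set against each other, although no label states that a shared number is 1 animal. In the “OHT+DREADD” group Fos in the colliculus and Fos in the RGC sample ran in opposite directions over 10 pairs (r = -0.79, permutation p = 0.00521, adjusted p = 0.0729, and rho = -0.70, permutation p = 0.0301, adjusted p = 0.211, over 14 tests). Pairs 9 and 10, with the highest retinal and the lowest collicular Fos of the group (26.8 and 28.2 CPM), lay apart from the rest. Without the 2 pairs farthest from the collicular median r was -0.39, so the relation rests on those samples. Colliculus 9 held the highest summed oligodendrocyte markers of all colliculi (14038 CPM, median 6922). Colliculus 10 held the highest summed microglia markers (1126 CPM, median 587) and had 46 reads of Fos. The part of these features in the relation was not tested. Sex also went with both levels in this group, with overlapping ranges. The 5 pairs in which Y-linked genes were higher included pairs 9 and 10. Their median Fos was 73.4 CPM in the retina and 40.95 CPM in the colliculus. In the 5 pairs in which Xist was higher, the medians were 21.9 and 76.2 CPM. The relation within each sex was not tested. In the “SHAM+DREADD” group r was -0.00435 (permutation p = 0.992, adjusted p = 0.992) and rho 0.18 (permutation p = 0.633, adjusted p = 0.914) over 10 pairs. Jun gave r = 0.72 in “OHT+DREADD” (permutation p = 0.0198, adjusted p = 0.138) and rho = 0.76 (permutation p = 0.0151, adjusted p = 0.211), and r = 0.50 without the 2 farthest pairs. At the adjusted p of at most 0.1 used for calls, the r of Fos in “OHT+DREADD” passed, and no other r and no rho of the 14 tests did. Under the rule used for pairs of members, an adjusted p under 0.05 for both r and rho, none of the 14 passed.

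**Figure D4:**
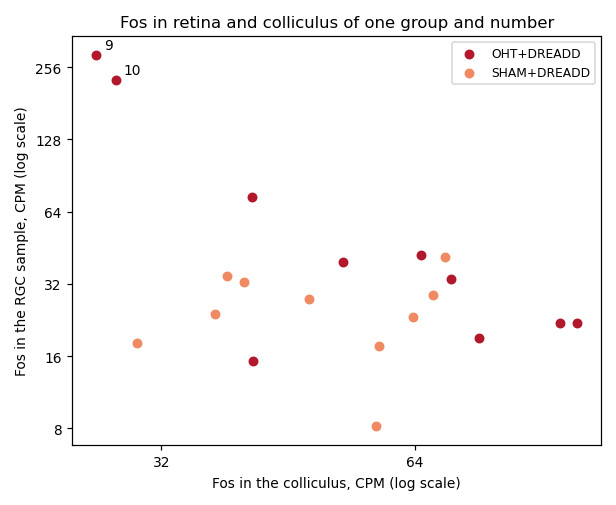
The horizontal axis gives Fos in the colliculus and the vertical axis Fos in the RGC sample of the same group and number, both in CPM on log2 scales. Points are the 10 “OHT+DREADD” and 10 “SHAM+DREADD” pairs. Pairs 9 and 10 of “OHT+DREADD” sit at the upper left (288 and 226 CPM in the retina, 26.8 and 28.2 CPM in the colliculus).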

How the data were processed

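The deposited files were 2 tables of raw read counts per Ensembl gene, 1 for 41 RGC samples and 1 for 41 colliculi. Per the labels and the methods, the authors aligned 50-base single-end reads to mm10 with HISAT2, discarded multi-mapped reads and made the counts with HTSeq 2.7.14 (SAMtools 1.5, FastQC 0.11.7). The strand setting and the annotation are not given in the sources used here. Symbols and coordinates were taken from GENCODE M21, which named 42548 of 43629 identifiers. Every column matched a sample.

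Each comparison was fitted on its 2 groups with edgeR 4.0.16 (TMM factors, quasi-likelihood test, Benjamini-Hochberg adjustment over all genes tested) on genes that exceeded 5 reads in 2 or more samples. A call needed an adjusted p of at most 0.1 and an absolute log2 fold change of at least 1.3 (RGC) or 0.5 (colliculus). The difference between DREADD effects was a contrast of all 4 groups. CPM used TMM factors over the 41 libraries of a tissue. Correlations used log2(CPM + 0.5). The model fits were run on simulated data in which only well-read genes were changed. Those data held no sex effects and no outlying libraries, so they do not cover the sparse members or groups with extreme libraries. The 7 members are all named. From each pathway list, genes were named by lowest p, at most 2 per comparison, and the 5 genes most like Fos and Jun were named at a mean of at least 5 CPM. Members and lists were chosen with earlier results of these data known. Alternatives were other scaling, filters, tools, covariates and each library left out. The methods call the samples biological replicates, and no label links a number to an animal. Counts set the precision, and intervals cover the spread between samples.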

Additional observations from a re-analysis of the deposited data

Results flagged for a closer look

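Of 42 groups of 10 libraries, 12 held a library that lay far above the rest by Dixon's criterion. Chance alone meets it in about 1 of 20 groups of normally distributed values. CPM is not such a measure, least of all in groups with mostly 0 reads, so 12 of 42 does not show an excess. In the RGC samples the flags of Fosb, Fosl1 and Fosl2 rest on few reads. Fosb stood at 4.28 CPM in “OHT+DREADD” replicate 10 and 1.25 CPM in “SHAM” replicate 10. Fosl1 stood at 7.89 CPM in “SHAM+DREADD” replicate 4 and 0.916 CPM in “SHAM” replicate 2. The next library in each of these groups stood at 0.795, 0, 2.37 and 0.232 CPM. Fosl2 reached 3.81 CPM (18 reads) in “OHT+DREADD” replicate 7, with 1.68 CPM in the next library. Jun reached 26.2 CPM in “SHAM” replicate 1 (next 16.5), Junb 10.6 CPM in “SHAM” replicate 8 (next 5.24) and Jund 8.79 CPM in “OHT+DREADD” replicate 1 (next 4.35). In the colliculus Fos stood at 31.6 CPM in “SHAM” replicate 10 (next 19.4) and Fosl1 at 4.84 CPM, or 11 reads, in “SHAM+DREADD” replicate 9 (next 2.705). Jun stood at 97.6 CPM (next 60.9) and Jund at 87.2 CPM (next 65.7) in “OHT+DREADD” replicate 10.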

How the results depend on the processing

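In the colliculus 3 members were called in “OHT+DREADD” vs. “OHT” with any library left out, and 3 to 4 in “SHAM+DREADD” vs. “SHAM”, where Fosl2 was gained without “SHAM+DREADD” 10, “SHAM” 6 or “SHAM” 10. With sex as a covariate 1 was called there, and 4 by limma-voom, the likelihood ratio test and without a filter, with Fosl2 the one gained. Junb was lost there in 1 fit of all 4 groups (adjusted p = 0.216 by edgeR's quasi-likelihood test). In “OHT+DREADD” vs. “OHT” limma-voom called 4 and filterByExpr, which dropped Fosb, called 2. DESeq2 gave Fosb no adjusted p in “SHAM+DREADD” vs. “SHAM” (log2 fold change 2.25). In the RGC samples 0 to 1 members were called in “OHT+DREADD” vs. “OHT” with a library left out, Fos being called without “OHT+DREADD” 4, 5, 6, 7 or 8 (log2 fold change 1.87 to 1.92). The likelihood ratio test, sex as a covariate and 1 fit of all 4 groups called 1 member each. Without a filter 3 were called in “OHT+DREADD” vs. “OHT” and 1 in “OHT+DREADD” vs. “SHAM+DREADD”, but 2293 genes in place of 15 and 2361 in place of 7 were then called in all. The retinal contrast of DREADD effects called 461 genes, against 11 by DESeq2, 5 under filterByExpr and 0 by limma-voom. The retina and colliculus correlation of Fos in “OHT+DREADD” was -0.39 without 2 pairs. Replicate numbers did not pair the samples (median r of same-numbered samples -0.04 to 0.11), and with the replicate block 3 members were called in each collicular comparison of receptor with null vector and 0 elsewhere. In 194 comparisons of a value with its alternative the sign changed where neither passed the test. Fits without “OHT+DREADD” replicates 9 and 10 and without the unstimulated colliculi of highest Fos were chosen after seeing the data. Sparse reads of Fosb, Fosl1 and Fosl2 limit the retinal values.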
